A study of Mus musculus with 18 samples.

Results

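Conventional type 1 dendritic cells (cDC1) were examined in mouse back skin on days 1, 2 and 4 after surgery, with or without a subcutaneous hydrogel expander that stretches the skin. A cell was counted as cDC1 when it held at least 2 UMIs (unique molecular identifiers, each standing for 1 captured transcript) of Xcr1 and Clec9a together, at least 5 UMIs of the MHC class II genes H2-Aa, H2-Ab1 and Cd74, no UMI of Cd3d, Cd3e or Cd3g, and under 5 UMIs of C1qa, C1qb and C1qc. This gave 282 cells of 47251. Barcodes entered the 47251 with 200 or more detected genes, 500 or more UMIs and no more than 10% of UMIs from mitochondrial genes. These values chose the cells, so the levels of Xcr1 and Clec9a below are a description.

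All mice were operated on: the back skin was cut near the tail and a path was opened under the skin to the neck. Expanded mice then received the hydrogel at the neck and control mice received none, so both groups carry a surgical wound. Skin was dissociated, DAPI-negative (live) cells were sorted, and 3′ mRNA was sequenced on the 10x Genomics platform. Mice of 1 arm and sequencing round were pooled in 1 tube, which gave 5 control and 5 expanded libraries: 2 rounds on day 1, 2 rounds on day 2 and 1 round on day 4. Strain, age and sex are not given in the sources used here. Oligonucleotide-tagged antibodies (hashtags) told the mice apart in every library except those of day 1 round 1. The libraries held 1927 to 8312 kept cells with a median of 6440.5 to 12847.5 UMIs per cell.

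cDC1 are the dendritic cells that specialise in taking up material from dead cells and presenting it on MHC class I to CD8 T cells, which is called cross-presentation. They form under the transcription factors IRF8 and BATF3. XCR1 is the receptor for the chemokine XCL1, which NK cells and CD8 T cells release, and CLEC9A binds actin filaments exposed by dead cells. In mouse dermis these cells also carry the integrin CD103 (Itgae) and langerin (Cd207), and langerin is shared with Langerhans cells of the epidermis. After activation, dendritic cells gain the chemokine receptor CCR7 and leave for the lymph node.

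The cells carried the known cDC1 genes that the selection did not use. Xcr1 (mm10, chromosome 9, 123852315 to 123862029, minus strand) had a UMI in 275 of the 282 cells and Clec9a (chromosome 6, 129408862 to 129424763, plus strand) in 171. Both were seen in 164 cells. Irf8 was detected in 95.4% of the cells, against 4.10% of 16038 fibroblasts that should lack it. The values for Wdfy4, a gene needed for cross-presentation, were 84.8% and 0.137%. Batf3 was found in 64.2% and 1.24%, Cadm1 in 73.8% and 2.73%, Itgae in 71.6% and 0.418%, and Cd207 in 268 of the 282 cells and 0.580% of fibroblasts. The median library had 14590.8 UMIs per cDC1 and 12742.2 per fibroblast, so depth was similar in both. Tlr3, the endosomal receptor for double-stranded RNA that often marks these cells, was seen in 5.67% of cDC1 and 9.58% of fibroblasts. In the dendritic cells compared below it was seen in 1.66% of Cd209a Mgl2 cells and 2.26% of migratory cells. Its few positive cDC1 are therefore not read as a mark or as background.

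The single genes of lymphocytes and neutrophils examined were rare, while sums over longer lists, given below, were not 0 in most libraries. Trac (T cells) and S100a8 (neutrophils) each had a UMI in 2 of 282 cells, and Ncr1 (NK cells) in 0, which allows a share of cells with a UMI of up to 1.06% by a floor of 3 counts and 1.30% by the exact 95% limit, and says nothing of cells that express the gene without a captured UMI. Siglech of plasmacytoid dendritic cells was seen in 5.67% and Sirpa of other dermal dendritic cells in 11.7%. Other genes of dermal dendritic cells and macrophages were frequent: Mgl2 was detected in 61.7%, Lyz2 in 96.8%, Apoe in 41.8% and Adgre1 in 27.3% of cDC1, and Cd209a in 12.4%. Fibroblast RNA was widespread: Col1a1 was detected in 66.7% of cDC1 and in 62.5% of Cd209a Mgl2 dermal dendritic cells, and 26 cDC1 held at least 20 UMIs of Col1a1 and Col1a2. The 12 fibroblast markers, none of them at 0, summed to 638 to 17653 CPM (a gene's UMIs scaled to a common total of UMIs in the summed cells) in control libraries and 172 to 7684 CPM in expanded ones. The 8 NK and innate lymphoid markers, with Ncr1 and Gzma at 0, summed to 32.6 to 127 and 26.1 to 266 CPM. For the 10 T cell markers outside the selection, with Cd4 and Lck at 0, the sums were 3.63 to 56.2 and 0 to 59.9 CPM. A doublet call by simulation or by hashtags fell on 31 of the 282 cells. No cDC1 barcode occurred in more than 1 library. In all kept cells, 263 barcodes did, with at most 18 shared by a pair of libraries.

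Cells on both sides of the threshold carried cDC1 genes. Summed over libraries, Irf8 stood at 778 CPM in the 60 cells with exactly 2 UMIs of Xcr1 and Clec9a and at 797 CPM in the 40 cells with 3. It stood at 394 CPM in the 154 cells with 1 UMI, which passed every other criterion and were left out, and at 100.05 CPM in those with none. Cd207 followed the same order, at 1089 CPM with 2 UMIs, 440 with 1 and 141 with none. Single libraries did not all follow it: of 8 libraries with cells of both kinds, Irf8 was higher with 2 UMIs in 5 and Cd207 in 7. In control skin of day 1 round 2, which held 52 of the 154 cells with 1 UMI, Irf8 stood at 664 CPM with 1 UMI and 609 with 2, and on day 4 at 396 and 393, so cells left out there resembled those kept. In the control library of day 2 round 1, 17 of 26 cells lay at exactly 2 UMIs. The criteria of the other dendritic cells overlap with that of cDC1. Of the 282 cells, 137 also had at least 2 UMIs of Cd209a and Mgl2, the mark of the comparison cells used below, and were kept out of that group by their Xcr1 and Clec9a. Likewise 176 had at least 2 UMIs of Cd207 and 1 of Epcam, the mark by which Langerhans cells were sought. The 432 cells with that mark and under 2 UMIs of Xcr1 and Clec9a are called Cd207 Epcam cells here, since Cd209a was detected in 71.8% and Mgl2 in 79.4% of them, with Mgl2 at a median of 1387 CPM against 1390 in the Cd209a Mgl2 cells. Itgae was seen in 69 of the 432 and Wdfy4 in 111.

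cDC1 formed a smaller part of the hashtag-assigned cells in expanded than in control skin when mice were compared. The pooled libraries, with all kept cells, gave the same direction without passing the test. Control libraries held 30, 41, 26, 41 and 71 cDC1 (day 1 rounds 1 and 2, day 2 rounds 1 and 2, day 4), and expanded libraries 32, 18, 13, 6 and 4. As shares of kept cells these are 0.515%, 0.493%, 1.19%, 0.702% and 0.946% in control skin and 1.08%, 0.306%, 0.383%, 0.311% and 0.117% in expanded skin. The expanded share was the lower one in 4 of 5 pairs, and the exception was day 1 round 1. The means were 0.769% ± 0.297 and 0.440% ± 0.373 (SD, n = 5 each), a difference of -0.329 points (exact two-sided permutation test, p = 0.159, Benjamini-Hochberg adjusted p = 0.198 over 5 tests on libraries). Without the expanded library of day 1 round 1 the difference was -0.490 points (exact permutation p = 0.0159, unadjusted). With at least 3 UMIs of Xcr1 and Clec9a required, it shrank to -0.109 points and did not pass. Day 2 round 1 then held 9 cDC1 among 2185 control cells and 13 among 3393 expanded cells. On day 4 the exact 95% binomial intervals, which cover counting error only, were 0.739% to 1.19% in control and 0.0318% to 0.299% in expanded skin.

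Mice could be compared in 4 of the 5 rounds, since day 1 round 1, the round in which the expanded share was the higher one, had no hashtags. Only part of the kept cells was assigned to a mouse, 12751 cells in control and 8762 in expanded skin. cDC1 were assigned more often than kept cells as a whole. On day 4, 63 of 71 cDC1 and 4514 of 7507 kept cells were assigned in control skin. In expanded skin of day 4 these were 4 of 4 and 2240 of 3423. With mice as the unit, the share of hashtag-assigned cells fell from 1.32% ± 0.683 to 0.394% ± 0.335 (SD, n = 14 mice in each arm). The test permuted arms within day and round (permutation test, p = 0.00015, adjusted p = 0.00075 over 5 tests on mice). Control mice ranged from 0.283% to 2.68% with a median of 1.21%, expanded mice from 0% to 0.939% with a median of 0.283%, and 3 expanded mice had no cDC1. The ranges overlapped. Within days, the difference was -0.452 points on day 1 (3 against 3 mice, exact permutation p = 0.2, where 0.1 is the smallest possible). It was -0.985 on day 2 (7 against 7, exact permutation p = 0.00714, adjusted 0.0179) and -1.18 on day 4 (4 against 4, exact permutation p = 0.0571, adjusted 0.0952). Of assigned cells with a Ptprc UMI, the gene of the leukocyte antigen CD45, the share differed by -2.07 points (permutation p = 1e-05, the smallest that the resamples can give). Libraries, which include day 1 round 1, differed in that share by -1.21 points and did not pass (exact permutation test, 5 against 5, p = 0.222), with 2.15% in control and 4.88% in expanded skin of day 1 round 1. Cells with a Ptprc UMI were themselves a larger part of the expanded library except in day 1 round 1. They were 654 of 2185 control and 1944 of 3393 expanded cells in day 2 round 1. In day 1 round 1 they were 1393 of 5828 and 615 of 2954. Their part in the lower cDC1 share was not tested. Mice of an arm and round went through 1 tube and 1 library, so an effect of the tube is part of the difference between arms and the p-value over mice does not cover it.

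**Figure D1:**
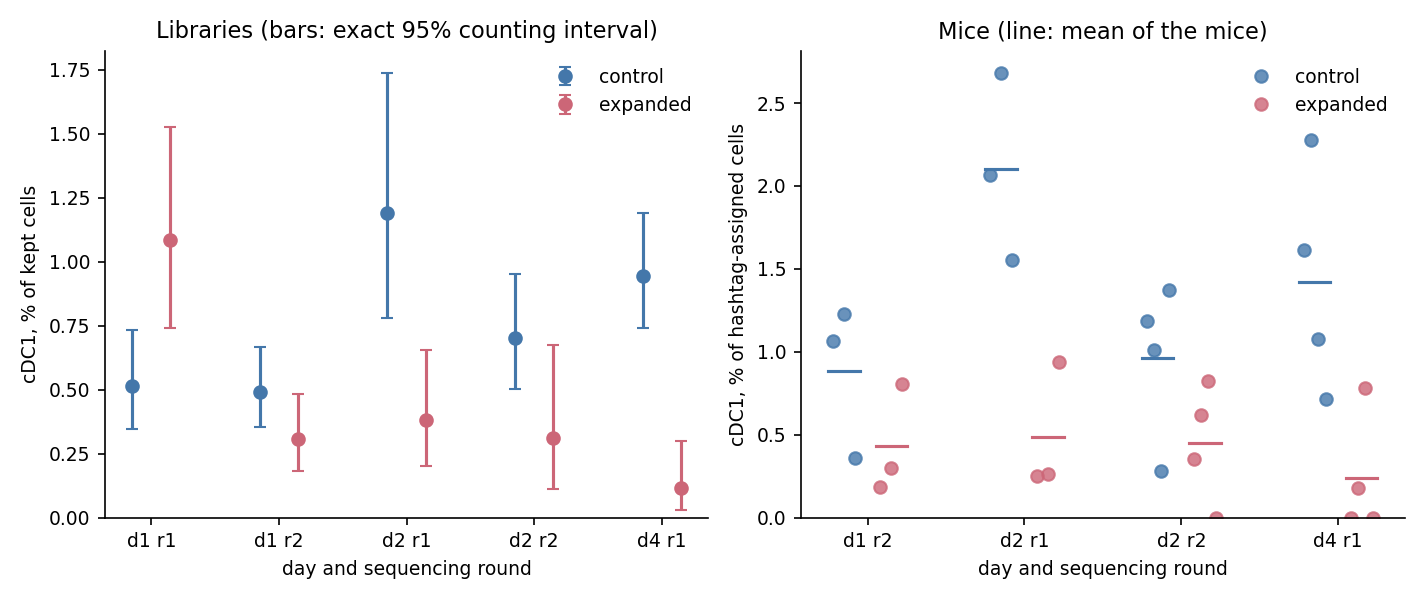
Share of cDC1 by library (left, percent of kept cells, with exact 95% counting intervals) and by mouse (right, percent of hashtag-assigned cells; each point is 1 mouse and each line the mean), by day and sequencing round (d1 r1 is day 1 round 1). Expanded libraries lie below control ones except in day 1 round 1, where the expanded share is 1.08%; in each round with hashtags the mean of the expanded mice is the lower one.

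The cDC1 of expanded skin were unevenly spread over mice, and in some rounds so were those of control skin. In day 1 round 2, 16 of the 18 cells came from 1 expanded mouse, which had 1978 of the 2844 assigned cells. In day 2 round 1, 8 of the 12 assigned cDC1 came from 1 expanded mouse, and on day 4, 3 of 4. An expanded library value therefore rests largely on 1 mouse in these rounds. Control mice held 11, 19 and 3 cDC1 in day 1 round 2 and 8, 10 and 8 in day 2 round 1. They held 8, 8, 2 and 19 in day 2 round 2 and 22, 22, 10 and 9 on day 4.

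The Cd209a Mgl2 dermal dendritic cells, chosen by at least 2 UMIs of Cd209a and Mgl2 and none of Xcr1 or Clec9a, showed a lower share as well. Macrophage genes were frequent in this group, with Mrc1 in 92.8% and Adgre1 in 59.1% of its cells. The dendritic cell genes Flt3 and Zbtb46 were detected in 19.7% and 18.9%. The share of the Cd209a Mgl2 cells was 7.40% ± 1.29 in control and 2.84% ± 0.350 in expanded libraries (SD, n = 5 each) and was lower in 5 of 5 pairs. The log2 ratio of cDC1 to these cells was -3.32 ± 0.373 in control and -2.97 ± 0.979 in expanded libraries (SD, n = 5, exact permutation p = 0.524). The difference of 0.341 became -0.0102 without the expanded library of day 1 round 1, where there were 3 Cd209a Mgl2 cells per cDC1. In the other 9 libraries there were 6.69 to 22. Over mice the ratios were -3.35 ± 0.641 and -3.16 ± 1.15 (SD, n = 14, permutation p = 0.602). A lower share particular to cDC1 was thus not detected, and the spread does not show that both shares fell alike. All of these values are shares of recovered cells, and numbers of cells in the skin were not measured. Migratory dendritic cells with Ccr7 and Fscn1 made up 1.11% ± 0.572 and 1.26% ± 0.517 of kept cells and Cd207 Epcam cells 1.02% ± 0.496 and 0.609% ± 0.194 (SD, n = 5 each, given as description).

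Against the Cd209a Mgl2 cells of the same libraries, cDC1 had a wide set of distinct genes. UMIs were summed per library and cell type in the 8 libraries with at least 10 cells of both, and 7462 genes outside both selections were tested with edgeR's quasi-likelihood test and a library block. Of these, 1065 (14.3%) passed an adjusted p of 0.05 with at least a 2-fold difference: 420 higher in cDC1 (5.63%) and 645 lower (8.64%). Both groups were made by gene thresholds, so genes that go with those thresholds had to differ.

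Irf8 and known cDC1 surface molecules were among the 12 named genes with the largest positive differences. Irf8 averaged 1017 CPM (735 to 1634) in cDC1 and 46.4 CPM (9.37 to 87.8) in Cd209a Mgl2 cells, a log2 difference of 4.61 (SE 0.352, edgeR adjusted p = 2.56e-07). Itgae averaged 179.9 against 4.62 CPM (log2 difference 5.31), and Btla, an inhibitory receptor of the immunoglobulin family, 148 against 7.01 CPM (4.88). Among the named genes Ttc39a had the largest difference, 34.5 against 0.104 CPM, and rests on 163 UMIs in cDC1 and 2 in the other cells. Cldn7, a tight junction claudin, averaged 41.4 against 0.384 CPM, and Pglyrp1, a secreted protein that binds bacterial cell walls, 66.0 against 1.22 CPM. Every one of these genes was higher in cDC1 in 8 of 8 libraries. Dgkk, Dbn1, Sema4f, Nppc and Barx2 complete the 12 highest with Stfa2l1, which is described with the expander below.

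Of 20 tested genes of cDC1 identity, 16 were called higher and 1 lower. Cst3 (the protease inhibitor cystatin C) averaged 19896 against 3856 CPM, Cd207 1549 against 166, Naaa 1234 against 431 and Ppt1 576 against 73.5. The gene called lower was Itgax, encoding the integrin CD11c, at 17.5 against 66.0 CPM. The all-gene median was 0.01 on the log2 scale and the median of the identity list was 2.80.

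Genes of antigen processing for MHC class I were called higher more often than lower. Over all 7462 genes, 5.63% were called higher and 8.64% lower, which is the background for this list and those below. Of 21 tested genes, 7 were higher: the peptide transporters Tap1 (126 against 43.7 CPM) and Tap2, the immunoproteasome subunits Psmb8 (649 against 268) and Psmb9 (359 against 74.5), the proteasome activator Psme1, the peptide editor Tapbpl, and Wdfy4. The 2 lower ones, a count near the share over all genes, were Ctss (651 against 1446 CPM), a cathepsin, and Cybb (6.72 against 165). Cybb is the catalytic subunit of the phagocyte NADPH oxidase. The heavy chain genes H2-K1 and H2-D1 were not called, at 843 against 905 and 1853 against 2482 CPM. These 2 genes have close relatives in the genome, and reads shared with them could be assigned differently. Within MHC class II, H2-Oa and H2-Ob, which together form the inhibitor of peptide loading, were higher (31.8 against 13.9 and 83.7 against 34.4 CPM), and H2-DMb2 and the thiol reductase Ifi30 were lower.

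Lysosomal proteases, chemokines and their receptors were mainly lower. Of 19 lysosomal genes, 9 were lower, among them Ctsb, Ctsd, Ctsh and Lgmn, and the 3 higher were Cst3, Ppt1 and Naaa. Of 20 cytokine and chemokine genes, 9 were lower and none higher. Cxcl2, a neutrophil attractant, averaged 493 CPM (29.8 to 1271) in cDC1 and 6360 CPM (3205 to 7919) in the other cells, and Ccl9 18.0 against 343 CPM. Of 19 chemokine and cytokine receptors, 9 were lower, among them Ccr2 (73.9 against 274 CPM) and Csf1r. The 12 lowest genes in all were Clec4g, Cd209b, Clec4n, Cd209d, Tarm1, Fcrls, Cybb, Sirpb1c, Irf4, Cd209c, Marco and Ccl9, and they include several C-type lectins. Irf4, the factor of type 2 dendritic cells, averaged 3.36 against 91.4 CPM. The Cd209a Mgl2 group also holds macrophage genes: Mrc1 averaged 853 CPM there and 56.0 in cDC1, and 10 of 11 tested macrophage markers were lower in cDC1. Their part in the lower genes was not tested.

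**Figure D2:**
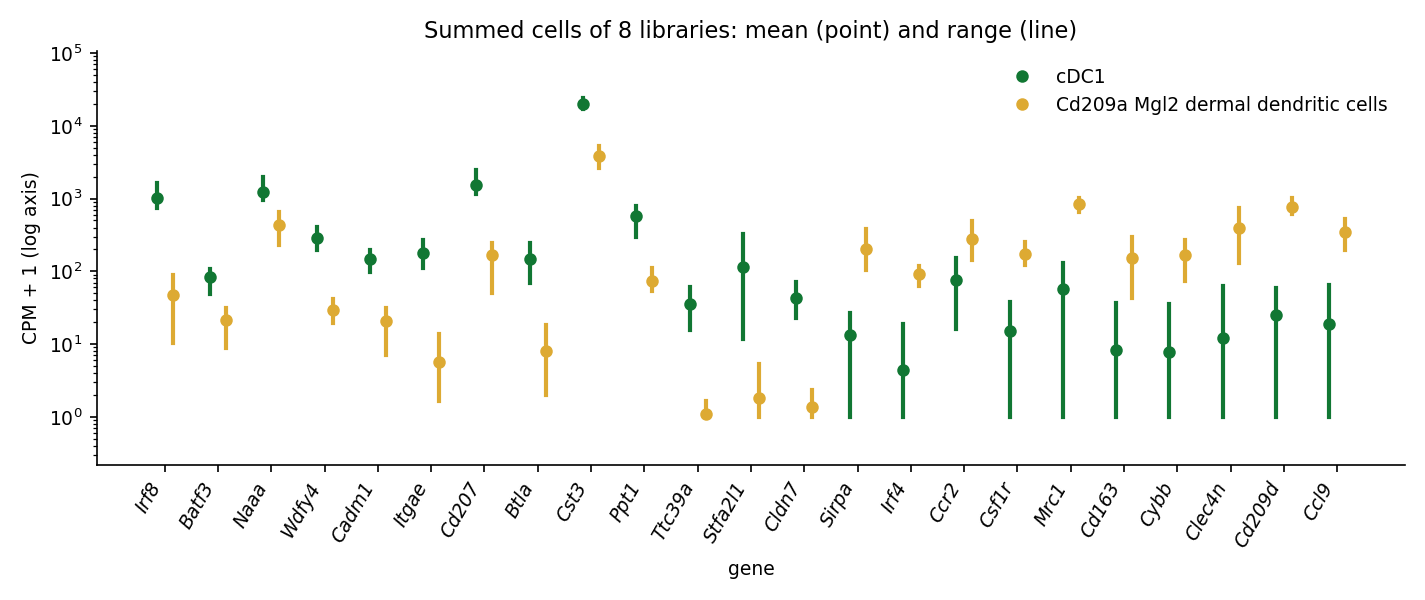
Mean CPM plus 1 (points, log axis) and range over 8 libraries (lines) of 23 genes in summed cDC1 and Cd209a Mgl2 dermal dendritic cells. Genes from Irf8 to Cldn7 lie higher in cDC1, with Irf8 at 1017 against 46.4 CPM, and genes from Sirpa to Ccl9 lie lower.

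The clearest gene difference between expanded and control cDC1 was Wfdc17, a secreted protein of the whey acidic protein family that myeloid cells make. Its level was 225, 169, 36.3, 210 and 154 CPM in the control libraries of day 1 rounds 1 and 2, day 2 rounds 1 and 2 and day 4, and 1293, 1303, 938, 1332 and 298 CPM in the expanded ones. All expanded libraries lay above all control libraries, and the day 4 library, with 4 cells, was the nearest to them. A Wfdc17 UMI was present in 71 of 73 expanded and 92 of 209 control cDC1. In the other dendritic cells the arms overlapped: Cd209a Mgl2 cells had 590 to 1576 CPM in control and 482 to 2246 CPM in expanded libraries, and Cd207 Epcam cells 641 to 1288 and 335 to 1431. Control cDC1 were thus the low cells, and expanded cDC1 of days 1 and 2 lay in the range of the other dendritic cells. The gene lies on chromosome 11, 83703991 to 83706268. Fibroblasts had 1.76 to 39.1 CPM.

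The test across genes used the 8 libraries with at least 10 cDC1, that is 5 control and 3 expanded libraries, and left out the expanded libraries of day 2 round 2 and day 4. Of 5098 genes, 3 passed an adjusted p of 0.05 (0.0588%): 2 were higher (0.0392%) and 1 lower (0.0196%) in expanded skin, and 388 had an unadjusted p under 0.05. Wfdc17 rose by 2.73 on the log2 scale (SE 0.384, edgeR adjusted p = 0.0443, higher in 3 of 3 pairs). With the sequencing round as a block its value was 3.12 (adjusted p = 0.0896), and over all alternatives the adjusted p ran from 5.48e-20 to 0.289. The call was lost without the control library of day 1 round 1 (2.88, adjusted p = 0.115), day 1 round 2 (2.64, 0.289) or day 4 (2.73, 0.0612), and without the expanded library of day 1 round 2 (2.74, 0.194) or day 2 round 1 (2.63, 0.132). The difference in response from the Cd209a Mgl2 cells was 2.67 (edgeR type-by-arm term, adjusted p = 0.0942) and did not pass.

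Ccr7, the receptor that guides dendritic cells to the lymph node, was the gene that fell. Its level was 60.9, 87.7, 58.0, 33.1 and 51.6 CPM in control libraries, in the same order, and 4.89, 0, 0, 0 and 0 CPM in expanded ones, with no overlap. This rests on 167 UMIs in 29 of 209 control cDC1 and 3 UMIs in 2 of 73 expanded cDC1. Few cells hold most of them: in the control library of day 2 round 2, 1 cell gave 20 of 23 UMIs, and without it that library stood at 4.53 CPM, below the highest expanded value. The 18 cDC1 with at least 3 UMIs of Ccr7 and Fscn1, chosen in part by this gene, stood at 473 CPM and the other 264 at 4.45. The ratio of expanded to control CPM over the tested libraries was 0.05, with a counting interval of 0.01 to 0.14. That interval covers counting error only and not the spread between cells, mice or libraries. The fitted log2 change was -4.71 (SE 0.655, edgeR adjusted p = 0.0443, lower in 3 of 3 pairs). With the round as a block it was -4.77 (adjusted p = 0.145), and over all alternatives the adjusted p ran from 3.00e-10 to 0.542. Leaving out any 1 of the 8 libraries ended the call (adjusted p of 0.286 when the day 1 round 2 controls were dropped, 0.194 for the expanded library of that round, and 0.0543 to 0.0845 for the other 6). The type-by-arm difference was -3.43 (edgeR adjusted p = 0.222). In the separately gated migratory dendritic cells, chosen by Ccr7 and Fscn1 themselves, Ccr7 stood at 749 to 1649 CPM in control and 895 to 2096 CPM in expanded libraries. The gene lies on chromosome 11, 99144196 to 99155077, minus strand.

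Cxcl14, a chemokine of keratinocytes and fibroblasts, was the third called gene and came from 1 cell. In the expanded library of day 2 round 1 it stood at 1258 CPM, of which 1 cell gave 337 of 338 UMIs. That cell also held at least 20 collagen UMIs. Without it the library stood at 4.51 CPM, and the others ranged from 0 to 93.6 CPM. The fitted change was 7.42 (edgeR adjusted p = 0.0443), 6.39 with the round as a block (adjusted p = 0.202) and 3.79 without this library (adjusted p = 0.278). Leaving out all cDC1 with at least 20 collagen UMIs, an alternative added after seeing the data, called 7 genes. Wfdc17 (3.06, edgeR adjusted p = 0.00411), Stfa2l1 (2.91, 0.0183) and S100a11 (1.02, 0.0446) were the higher ones, and Ccr7 (-4.80, 0.00689) and Serpinb6b (-4.00, 0.0337) were among the lower ones.

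Genes next in order of p were not called. Stfa2l1, an inhibitor of cysteine proteases of the stefin A family, had 28.1, 13.9, 10.9, 57.5 and 55.1 CPM in control and 236, 329, 179, 77.9 and 94.0 CPM in expanded libraries (log2 3.05, edgeR adjusted p = 0.078). All expanded values lay above all control values, and the gap was widest on day 1 and in day 2 round 1. Stefin A genes are near-copies of each other, so the split of reads among them is uncertain. In the same libraries the Cd209a Mgl2 cells had 0 to 4.34 CPM and fibroblasts 0 to 1.47 CPM. Neutrophils are a known source of this family, and 9 neutrophil markers summed to 74.8 to 155 CPM in control and 101 to 287 CPM in expanded cDC1. Most of that sum is Il1r2, which Cd209a Mgl2 cells also carry (mean 309 CPM). The other 8 markers summed to 0 to 9.96 CPM in control and 0 to 26.2 CPM in expanded cDC1, with Retnlg and Mmp9 at 0. Cfb, a complement factor, had 34 of its 38 expanded UMIs in collagen-rich cells. Ndufa4l2 had 164 UMIs in control and 0 in expanded cDC1, and 153 of the 164 lay in collagen-rich cells. Tmem176a was at 18.1 to 50.7 CPM in control and 0 to 188 CPM in expanded libraries.

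Cd36, a scavenger receptor for fatty acids and dying cells that cDC1 carry, stood at 96.0, 83.7, 123, 87.7 and 85.4 CPM in control and 32.6, 26.2, 33.5, 15.6 and 15.7 CPM in expanded libraries. The arms did not overlap in any of the 10 libraries, and the log2 difference was -1.66 (edgeR adjusted p = 0.201). It was called when all 10 libraries were used (-1.83, adjusted p = 0.0353), an alternative added after seeing the data, and over all alternatives the adjusted p ran from 0.00423 to 0.53. Cd209a Mgl2 cells had 9.55 to 20.4 CPM in control and 0.766 to 13.9 CPM in expanded libraries. Over all 5098 genes, 84 (1.65%) had no overlap of the arms in 10 libraries, 42 of them higher in expanded skin (0.824%) and 42 lower (0.824%). Serpinb6b, an intracellular serine protease inhibitor, was another of them, with 25.4 to 105 CPM in control and 0 to 23.4 CPM in expanded libraries (log2 -3.87, edgeR adjusted p = 0.128). S100a11, a calcium-binding protein, had 1753 to 3668 and 3639 to 7165 CPM and overlapped slightly.

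**Figure D3:**
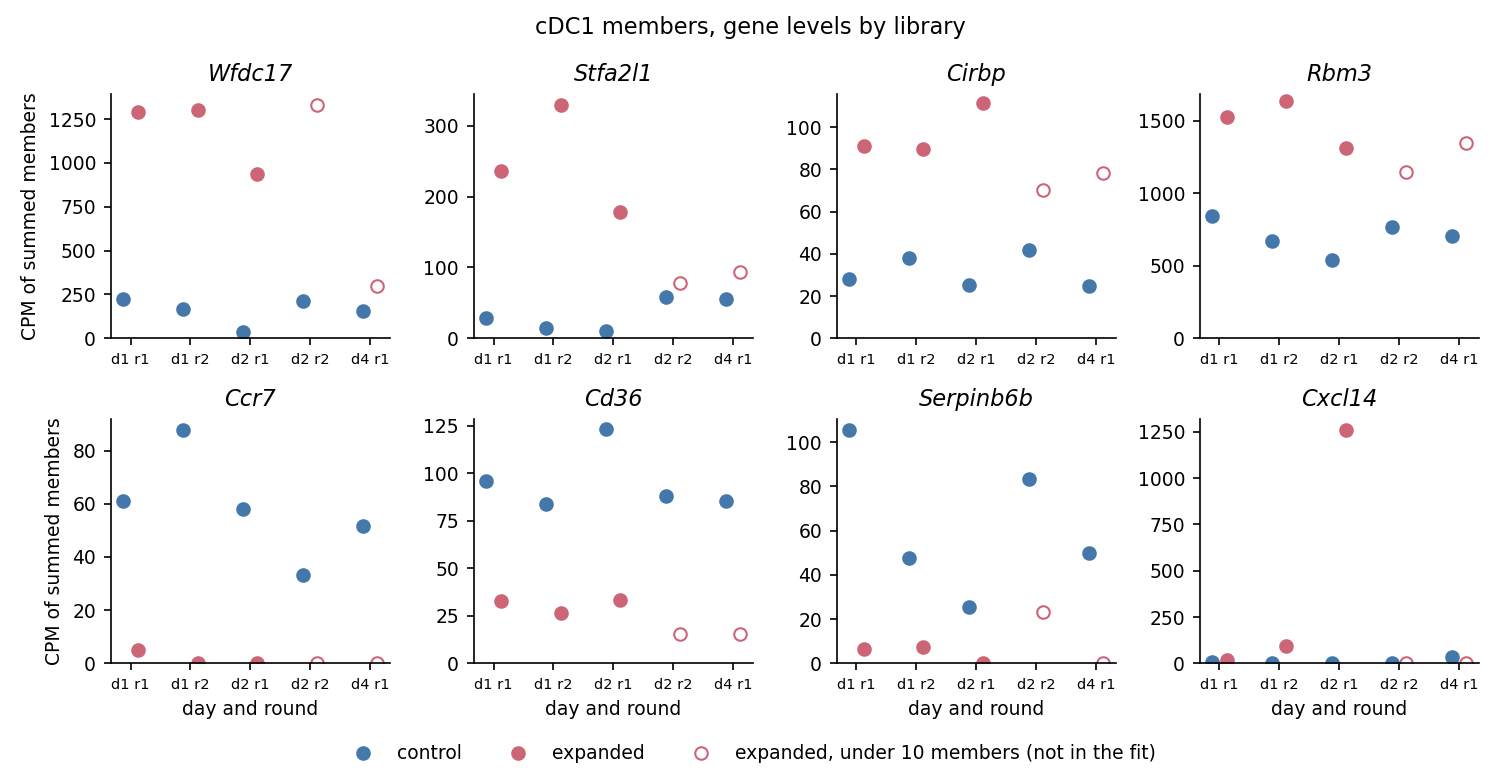
CPM of 8 genes in summed cDC1 of each library by day and round (d1 r1 is day 1 round 1), control in blue and expanded in red; open points are the 2 expanded libraries with under 10 cDC1, which were not in the test. Wfdc17 lies at 36.3 to 225 CPM in control and 298 to 1332 CPM in expanded libraries, Ccr7 at 33.1 to 87.7 and 0 to 4.89, and the Cxcl14 value of 1258 CPM comes from 1 cell.

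In the test of expanded against control cDC1, genes of cDC1 identity and antigen presentation gave no call. Of 20 identity genes, 0 were called and 12 had a positive difference (median 0.20, against -0.01 for all genes). Naaa had 993 to 1297 CPM in control and 956 to 1999 CPM in expanded libraries, and Cst3 16908 to 23760 and 17732 to 21877. For MHC class I, 0 of 20 were called, with 11 positive. H2-K1 stood at 817 to 1055 and 576 to 756 CPM, without overlap, at a log2 difference of -0.52 (edgeR adjusted p = 0.589). For MHC class II outside the selection, 0 of 9 were called, with 5 positive, and H2-Eb1 had 2891 to 10398 and 4927 to 10807 CPM. In the type-by-arm test described below, 1 of 21 genes of the MHC class I list was called, Rab43 (1.10, edgeR adjusted p = 0.0408). It averaged 176 ± 31.5 and 298 ± 66.7 CPM in control and expanded cDC1, and 130 ± 9.81 and 114 ± 26.9 in Cd209a Mgl2 cells. That test called no gene without the control library of day 1 round 2.

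Stress and signalling lists leaned lower without single calls. Of 18 NF-kappaB genes 2 were positive (median -0.67), and Nfkbia, the inhibitor that NF-kappaB induces on itself, had a difference of -0.73 (edgeR adjusted p = 0.525). Icam1, the ligand for the integrin LFA-1, had 204 to 528 CPM in control and 117 to 322 CPM in expanded libraries. Of 11 heat shock genes 1 was positive (median -0.60). All 12 heat shock genes of the list, with the untested one included, summed to 6075 to 9422 CPM in control and 3723 to 5874 CPM in expanded cDC1. The arms did not overlap, and no background for such list sums was computed. The 15 macrophage and monocyte markers, none at 0, summed to 1314 to 2602 and 732 to 1708 CPM. Cold-inducible RNA-binding proteins were higher in expanded libraries: Rbm3 had 537 to 843 and 1145 to 1632 CPM (log2 0.97, edgeR adjusted p = 0.208) and Cirbp 24.9 to 41.7 and 70.1 to 112 CPM (1.48, 0.201), both without overlap. The same separation was present in the other cells of these libraries, with Rbm3 at 291 to 426 and 823 to 1179 CPM in fibroblasts and a type-by-arm term of -0.04 (edgeR adjusted p = 0.982). Tube and arm cannot be told apart in these values.

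Cycling and Ccr7-positive cells were compared after each cell was thinned to 2000 UMIs, since shares of cells with a UMI depend on depth; the median cDC1 had 13713 UMIs in control and 17804 in expanded skin. A cell counted as cycling with at least 3 UMIs of 24 cycling genes. In control libraries 23.3%, 24.4%, 20%, 22.0% and 25.4% of cDC1 were cycling, and in the 3 expanded libraries with at least 10 cells 12.5%, 0% and 15.4%. The means were 23.0% ± 2.10 (SD, n = 5) and 9.29% ± 8.18 (SD, n = 3), a difference of -13.7 points (exact permutation p = 0.0357, the smallest that 56 arrangements allow, adjusted 0.0893 over 5 tests). Averaged over all possible thinnings the means were 25.1% ± 4.98 and 11.5% ± 4.29 (SD, n = 5 and 3, exact permutation p = 0.0357). Without thinning the expanded libraries were the higher ones, by 7.27 points (exact permutation p = 0.107), so the direction depends on the correction for depth. Thinned to 4000 UMIs the difference was -5.15 points (exact permutation p = 0.5), and with rounds paired -13.3 (exact permutation p = 0.25, the smallest for 3 pairs). The 14 tested cycling genes were all negative (median -0.95) with 0 called. Mki67 stood at 47.1 to 201 CPM in control and 37.2 to 234 CPM in expanded libraries, which overlap. All 24 cycling genes summed to 671 to 1646 CPM in control and 376 to 1329 CPM in expanded libraries. In day 1 round 1 the expanded sum was the higher one, 1329 against 1278 CPM.

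A Ccr7 UMI at this depth was found in 4.86% ± 2.16 of control cDC1 (SD, n = 5) and in 0% of expanded cDC1 in each of 3 libraries (exact permutation p = 0.0357, the smallest possible, adjusted 0.0893). Over all 5 expanded libraries it was 0 of 73 cells, which allows a share of cells with a UMI at 2000 UMIs of up to 4.11% by a floor of 3 counts and 4.93% by the exact 95% limit. Without thinning, 2 of the 73 cells held a Ccr7 UMI. The share in fibroblasts without thinning was 0.299%. With rounds paired the difference was -5.40 points (exact permutation p = 0.25), and with at least 2 Ccr7 UMIs required it was -1.05 (exact permutation p = 0.714). Of cDC1 that passed the stricter mark of 3 UMIs of Ccr7 and Fscn1, 18 were among the 209 control and 0 among the 73 expanded cells.

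Compared with the Cd209a Mgl2 cells of the same libraries, more cDC1 were cycling, by 5.67 points, but the test did not pass. The shares were 17.9% ± 8.48 and 12.2% ± 3.60 (SD, n = 8 libraries), with cDC1 higher in 6 of 8 (exact sign-flip permutation p = 0.0781, adjusted 0.130, added after seeing the data). Among genes, Mcm6, Tyms, Hmgb2, Pclaf and Rrm2, which serve DNA replication and chromatin, were higher in cDC1, 5 of 15 tested cycling genes, and 0 were lower.

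**Figure D4:**
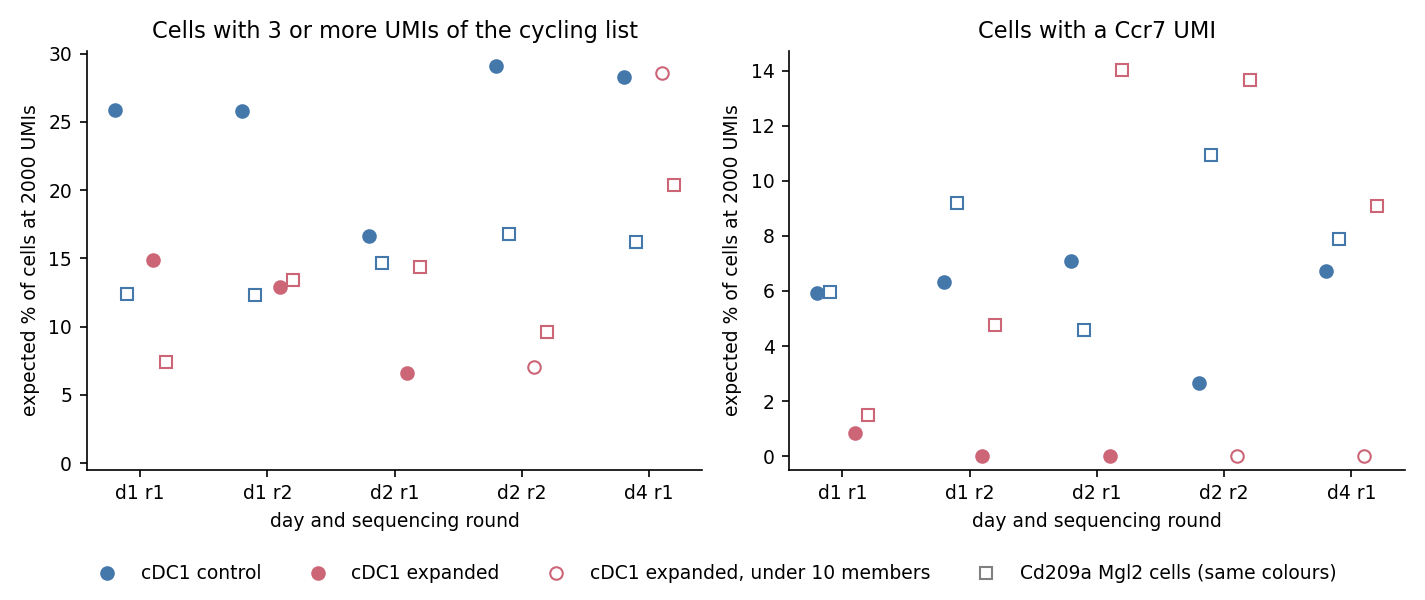
Expected percent of cells at 2000 UMIs per cell that hold at least 3 UMIs of the cycling list (left) or a Ccr7 UMI (right), by day and round, in cDC1 (circles) and Cd209a Mgl2 dermal dendritic cells (squares), control in blue and expanded in red. Filled red circles are the 3 expanded libraries with at least 10 cDC1 and lie below the control circle of the same round in both panels. The open red circle of day 4 holds 4 cells and stands at 28.6% cycling, against 28.3% in control. That of day 2 round 2 holds 6 cells and stands at 7.03%, against 29.1% in control.

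The response to the expander differed between cDC1 and Cd209a Mgl2 cells for few genes. Of 7462 genes, 12 passed the edgeR type-by-arm test (0.161%; 11 higher in cDC1 relative to the other cells, 0.147%, and 1 lower, 0.0134%), and 750 had an unadjusted p under 0.05. BC028528 averaged 351 CPM ± 54.8 in control (n = 5) and 559 ± 72.7 in expanded cDC1 (n = 3), and 134 ± 29.6 and 84.3 ± 9.47 in the other cells (term 1.46, edgeR adjusted p = 0.0286). Kctd12, an auxiliary subunit of GABA-B receptors, averaged 246 ± 40.1 and 367 ± 56.7 CPM in cDC1 and 326 ± 49.2 and 212 ± 4.98 in the other cells (1.32, edgeR adjusted p = 0.0286). For both genes the expanded mean was the higher one in cDC1 and the lower one in the other cells. Ahr, the aryl hydrocarbon receptor, showed the same crossing, with 225 ± 15.4 and 308 ± 67.5 CPM in cDC1 and 258 ± 43.2 and 158 ± 18.3 in the other cells (1.25, edgeR adjusted p = 0.0364).

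Flna, the actin crosslinker filamin A, crossed the other way, with 223 ± 39.2 and 117 ± 21.5 CPM in cDC1 and 189 ± 24.8 and 317 ± 94.96 in the other cells (-1.52, edgeR adjusted p = 0.0364). For Vegfa, the growth factor of blood vessels, the term rests on 38 control and 29 expanded UMIs in cDC1, 13 of the latter in 1 collagen-rich cell. Its level in the Cd209a Mgl2 cells was 91.3 ± 23.1 and 35.9 ± 5.89 CPM (2.63, edgeR adjusted p = 0.0364). Timp3, C3 and Plac8 had few UMIs in few cells: C3 had 23 of its 31 expanded UMIs in 1 collagen-rich cell, and Plac8 15 of 21. Without cells of at least 20 collagen UMIs, BC028528, Kctd12, Ahr and Flna were still called, Vegfa (edgeR adjusted p = 0.116) and Plac8 (0.222) were not, and Timp3 and C3 fell under the filter on low counts. None of these 4 calls held without the control library of day 1 round 2 (adjusted p = 0.126 for each), without that of day 4 (0.0948 for each) or without the expanded library of day 2 round 1 (0.0756 for BC028528, 0.0863 for Kctd12, 0.0928 for Ahr and Flna).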

How the data were processed

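Single-cell 3′ mRNA libraries of mouse back skin (10 of 18 samples, the other 8 being hashtag libraries of the same tubes) were analysed. The authors deposited UMI counts per gene and barcode, made with Cell Ranger 6.1.2 and mm10 per the submitters' processing notes, with no normalization. Mice were assigned with HTODemux (Seurat 5.3.0, quantile 0.99). Doublets were called with Scrublet (scanpy 1.11.5, 0.058% to 2.97% of kept cells per library) and, unless an alternative says so, kept. Libraries held 17726739 to 75470722 gene UMIs.

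Counts of cells of 1 type were summed per library and tested with edgeR 4.0.16 (TMM, filterByExpr, quasi-likelihood test, Benjamini-Hochberg adjustment at 0.05) with day as covariate for the expander and the library as block between cell types. Genes of either selection were left out of the counts of called genes. Per-library and per-mouse shares were compared with exact or 100000-resample two-sided permutation tests in Python 3.11.15, and log2 ratios used a pseudocount of 0.5. The labels say that a round number marks a shared sequencing round, so rounds pair the arms. Same-round deviations correlated at 0.14 on day 1 and -0.10 on day 2 over 2437 genes. Each library pools the mice of 1 tube, so p-values over libraries measure the spread between tubes.

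Named genes were, for the expander, the 5 each way with the smallest p and, per list, called members or the 3 of highest mean CPM. Between cell types they were the 12 highest and 12 lowest by fold among called genes, and for the type-by-arm term the 8 of smallest adjusted p. Mitochondrial, ribosomal and unnamed genes were left out. The cells and lists were chosen with earlier results of these data known. Alternatives covered normalization with DESeq2 1.42.0 or library size, filters, thresholds, thinning, doublets, blocks and each library left out. The use of all 10 libraries, days 1 and 2 alone, the removal of collagen-rich cells, the averaged thinning and the cycling comparison between cell types were added after seeing the data. The tests across genes and the permutation tests were tested on simulated data.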

Additional observations from a re-analysis of the deposited data

Results flagged for a closer look

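The cDC1 share of the expanded library of day 1 round 1, 1.08% of kept cells, lay far from the other 4 expanded libraries, of which the nearest had 0.383% and the lowest 0.117%. Cxcl14 stood at 33.8 CPM in control cDC1 of day 4, with 4.68 CPM in the next and 0 CPM in the lowest of 5 control libraries. These were 2 of 20 groups checked for a distant sample, and chance gives about 1 in 20.

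The change with the expander differed between cDC1 and Cd209a Mgl2 dermal dendritic cells, by an edgeR type-by-arm term on the log2 scale, for BC028528 (1.46), Kctd12 (1.32), Vegfa (2.63), Flna (-1.52), Ahr (1.25), Timp3 (3.80), C3 (4.01) and Plac8 (5.003). Vegfa and the last 3 rest on 7 or fewer expanded cDC1 with a UMI.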

How the results depend on the processing

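The per-mouse fall of the cDC1 share kept its direction and passed in 8 of 8 alternatives (-2.07 to -0.548 points, all without day 1 round 1, which had no hashtags and the higher share in expanded skin), and the 24 genes named between cell types kept direction and call in 316 of 316 values. The per-library share did not pass except without the expanded library of day 1 round 1 (-0.490 points). With at least 3 UMIs of Xcr1 and Clec9a required, the share difference shrank to -0.109 points. Leaving out 1 library gave -0.490 to -0.224 points for the share. For the log2 ratio to Cd209a Mgl2 cells it gave -0.01 to 0.67, with -0.0102 without the expanded library of day 1 round 1. With rounds paired, as a replicate block, the share difference was -0.329 (exact permutation p = 0.25).

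The cycling difference was 7.27 points without thinning, -5.15 at 4000 UMIs, -10.5 with at least 20 cells per library, -13.3 in the replicate block, -5.87 with 2 UMIs required and -16.8 to -9.06 with 1 library left out. The Ccr7-positive difference was -6.27 at 4000 UMIs, -4.86 with at least 20 cells, -5.40 in the block, -1.05 with 2 UMIs and -5.46 to -4.07 with 1 library left out. With fewer libraries or the block, these permutation tests cannot reach 0.05. The cycling difference between cDC1 and Cd209a Mgl2 cells was 15.0 points without thinning, and 4.37 to 7.56 with 1 library left out, passing without the expanded library of day 1 round 2 (7.56, exact permutation p = 0.0313, unadjusted).

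The 3 genes called for the expander became 20 with DESeq2 (11 higher, 9 lower), 144 without the filter (54, 90), 65 with at least 20 cells (9, 56), 6 after thinning, 13 without doublets (3, 10), 1 in the replicate block, 6 with all 10 libraries, 7 without collagen-rich cells, 0 on days 1 and 2 (351 at an unadjusted p under 0.05) and 1 per mouse. With 1 library left out they were 0 to 5: 0 when either library of day 1 round 2 or the day 4 controls were dropped, 1 when the day 2 round 1 controls were, and 5 when the expanded library of day 1 round 1 was. Between cell types, 1785 genes were called without the filter (614 higher, 1171 lower) and 334 after thinning (97, 237). The 12 type-by-arm calls became 35 with DESeq2 (28, 7), 221 without the filter (155, 66), 2 after thinning, 0 with 3 UMIs required, and 0 to 57 with 1 library left out (0 on dropping the controls of day 1 round 2 or day 4 or the expanded library of day 2 round 1, and 57 on dropping the expanded library of day 1 round 1). Apart from construction (fewer genes, cells or libraries), the cause was not tested. Expanded libraries of 4 and 6 cells limit what can be seen on day 4 and in day 2 round 2.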

Other observations

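The 18 cDC1 with at least 3 UMIs of Ccr7 and Fscn1, all from control skin, kept Xcr1 and Cd207 at levels near those of the other 264 cells, at 343 against 307 and 1787 against 1665 CPM. Irf8 stood at 607 against 1060 CPM, Rab7b at 178 against 491 and Naaa at 838 against 1282. The other 264 include all 73 expanded cells, so a difference between arms is part of these values. Over all cDC1, Irf8 stood at 735 to 916 CPM in control and 690 to 2009 CPM in expanded libraries. Ccl22, a chemokine that attracts regulatory T cells, stood at 121 against 39.5 CPM. These cells were chosen by Ccr7 and Fscn1 and come from few cells, so the values are a description with no test.

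Itgae and Cd207 were both detected in 199 of the 282 cDC1, 66.0% of control and 83.6% of expanded cells, and the median depth was higher in expanded cells. Of 4 tested genes of the type I interferon response, 4 had a positive difference with the expander (median 0.59 on the log2 scale) and 0 were called.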
